A study of Mus musculus with 10 samples.

Results

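The genes described here encode the factors that start, extend and end protein synthesis. They were found by symbol: initiation factors Eif1 to Eif6, elongation factors Eef1 and Eef2, the release factor genes Etf1, Gspt1 and Gspt2, and the Paip genes, whose proteins bind the poly(A)-binding protein. The eIF4E genes Eif4e, Eif4e2 and Eif4e3, the helicase genes Eif4a1 and Eif4a2 and the gene of 4E-T itself (Eif4enif1) were left out. Eif4e1b, a further gene of the eIF4E family, stayed among the members. The rule gave 63 genes among the 22180 measured through a probe set with a single gene symbol. A further 9 names that the rule would take are not analysed here: Eif1, Eif2s1, Eif2s3x, Eif3g, Eif3j2, Eif4a3l2, Eif4ebp3, Eif4g1 and Eef1akmt4. One of the 63, Eif2c5, carries an older name of the Argonaute family and is annotated as a long noncoding RNA, so it is a member by name and belongs to no factor complex.

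The RNA was from freshly collected cortices of CD1 mice, taken as embryos on embryonic days 12 to 13, and Affymetrix Mouse Gene 2.0 ST arrays were used to measure it. The groups were 3 arrays of RNA precipitated with an antibody to 4E-T (4ET-IP, replicates 1 to 3), 3 of RNA precipitated with IgG (IgG-IP, replicates 2 to 4), and 4 of total input RNA (replicates 1 to 4). By the design text there were 3 biological replicates, while 4 inputs are labelled; whether embryos or litters were pooled is not given. No treatment or genetic change is named for any group. Values are log2 intensities after RMA, so a value is a relative level within its array, and the amount of RNA that each antibody recovered was not compared. A lower value in a precipitate than in input is thus a lower relative level in the recovered RNA, not a lower level in the tissue. In bulk tissue RNA, a lower share of cells that hold an mRNA and less of that mRNA per cell cannot be told apart.

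A pair of arrays, 4E-T 1 and input 1, stood on a lower scale, with medians over all probe sets of 3.52 and 3.54, against 4.33 to 4.54 on the other 8. Wherever values are listed by array, the first value of the 4E-T and of the input arrays comes from this pair. The fit across all genes therefore held a term for this pair besides the group, and differences below are from that fit (limma, with Benjamini-Hochberg adjustment over all 22180 genes, called at an adjusted p under 0.05). In this fit 4E-T 1 bears on a comparison only through its difference from input 1. A fit without 4E-T 1 or without input 1 held no such term, so the other of the pair stayed uncorrected on its lower scale. A call lost there need not rest on the array left out, so results in the 8 arrays outside the pair are given beside some calls. 4E-T 1 and input 1 also held equal values at 7.52% of probe sets, against at most 0.138% for any other 2 arrays. Over all genes, 4E-T over IgG had a median of 0.03 (-0.19 with group alone), 4E-T over input one of 0.04 (-0.02 with group alone) and IgG over input one of 0.03 (0.20 with group alone). Of 11 cortical precursor and neuron markers, 10 were measured and all 10 lay above the array median on all 4 inputs, as did 2 of 4 endothelial markers (Pecam1, Cdh5), 2 of 4 microglia markers (Cx3cr1, P2ry12), 0 of 4 mesenchyme markers and 0 of 1 measured erythroid marker.

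Translation begins when a small ribosomal subunit carrying eIF2 with the initiator tRNA, together with eIF1A, eIF3 and eIF5, is brought to the capped end of an mRNA by the eIF4 factors. eIF2B recharges eIF2 with GTP, and the eIF2 alpha kinases stop that recharging under stress. Elongation factors eEF1A and eEF2 then deliver aminoacyl-tRNA and move the ribosome, and eRF1 with eRF3 ends the chain. 4E-T is a repressor that binds eIF4E and collects in P-bodies, where silenced mRNAs are held. Messages of many translation factors belong to the TOP class, which begins with a stretch of pyrimidines and is regulated together through mTOR.

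Relative to input, translation factor genes were called lower more often than higher in both precipitates, and the eIF3 subunit genes were among the lowest. Of the 63 genes, 7 were higher and 22 lower in 4E-T precipitates than in input, with a median of -0.23 beside 0.04 over all genes. Over all genes the same test called 10.4% higher and 8.86% lower. In IgG precipitates 4 were higher and 24 lower than in input, with a median of -0.29 beside 0.03 over all genes, where 6.14% were called higher and 10.5% lower. Both comparisons use the same inputs, so they are not separate evidence. With group alone, the split was 0 higher and 11 lower for 4E-T over input, and 0 and 15 with IgG against input. With group alone on arrays centred on their medians it was 4 and 15, and 0 and 23. The counts called fell to 16 and 16 without 4E-T 1 and to 15 and 17 without input 1, where the term for the lower scale was dropped. Counts over all genes in these other fits are not given here. A lower count among the members therefore does not by itself set them apart from other genes.

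**Figure D1:**
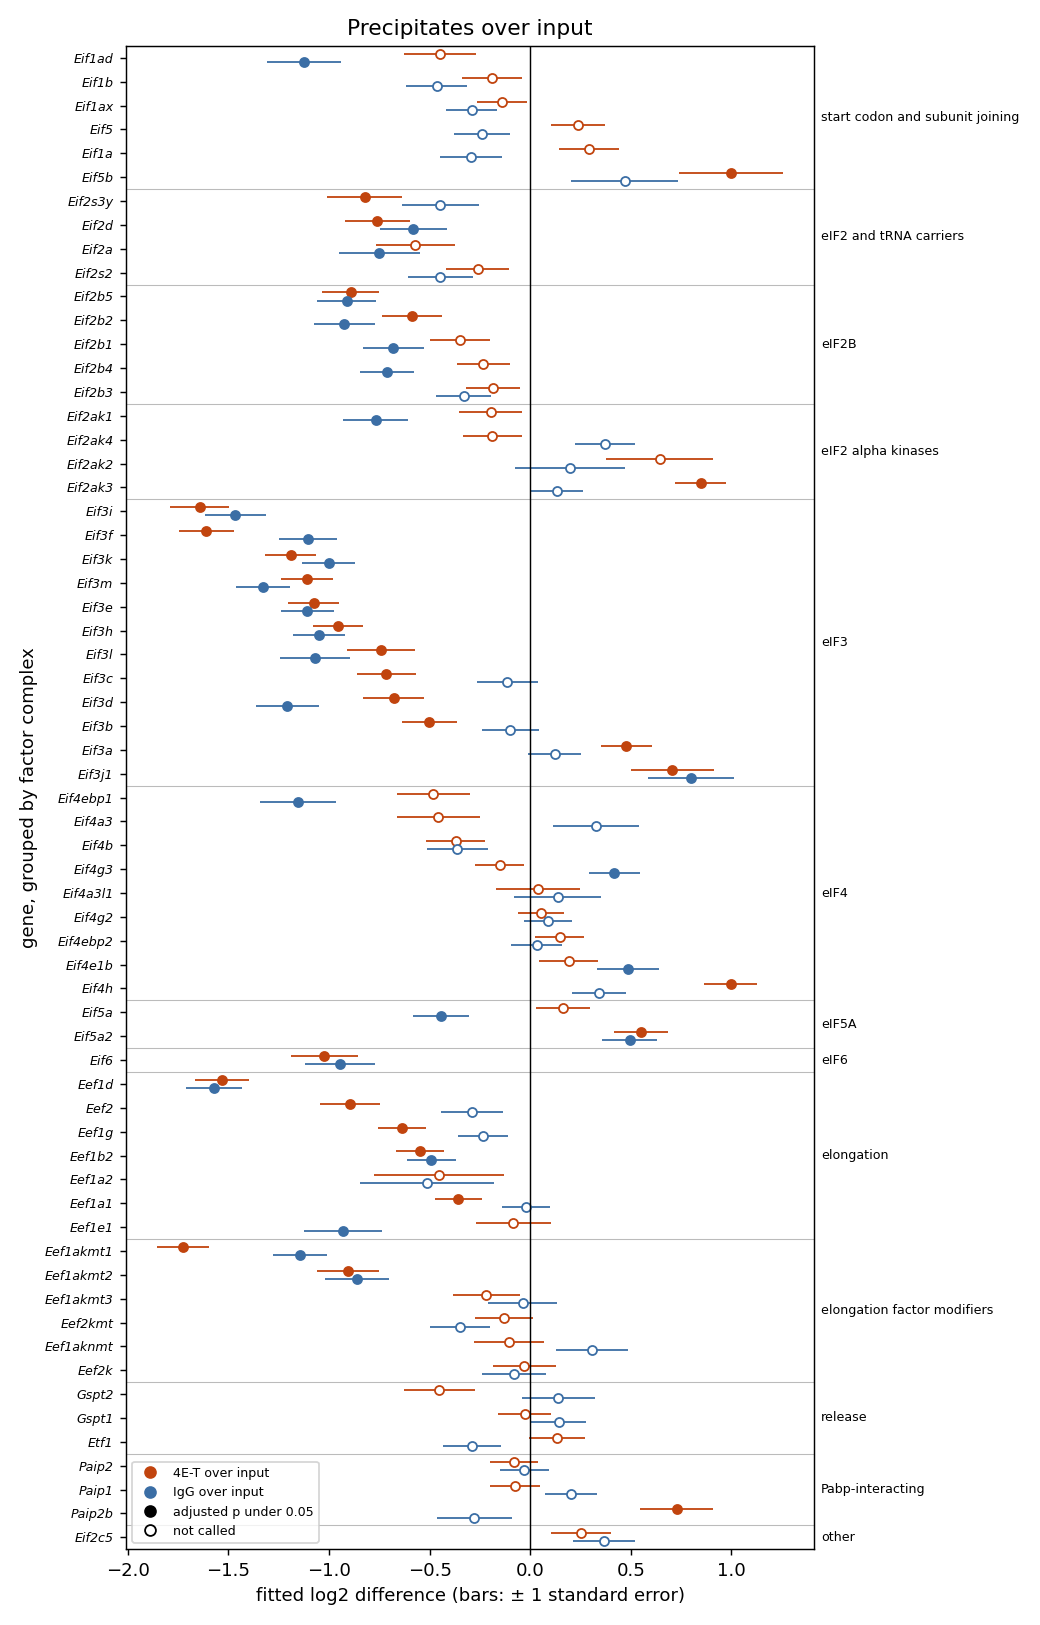
Fitted log2 differences of the 4E-T precipitates over input (red-brown) and of the IgG precipitates over input (blue) for the 63 genes, grouped by factor complex; bars are ± 1 standard error, and filled points have an adjusted p under 0.05. The eIF3 genes other than Eif3a and Eif3j1 lie left of 0 in both comparisons, and Eif4h, Eif5b and Eif2ak3 lie at the right end for 4E-T.

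eIF3 is the largest initiation complex and holds the small subunit ready for mRNA. Of its 12 measured genes, 10 were lower and 2 higher in 4E-T precipitates than in input, and 8 were lower and 1 higher in IgG precipitates. The medians were -0.85 and -1.06. With group alone the counts were 6 lower and 0 higher with 4E-T, and 7 and 0 with IgG. Eif3i, whose protein is a WD-repeat subunit, read 9.05, 8.88 and 8.84 in the 4E-T precipitates, 9.15, 9.09 and 9.22 in the IgG precipitates and 10.24, 10.61, 10.79 and 10.68 in the inputs. The inputs lay above every precipitate array. Its difference was -1.64 ± 0.15 for 4E-T over input (SE, adjusted p = 5.72e-05) and -1.47 ± 0.15 with IgG against input (9.74e-05), 3.12-fold and 2.76-fold lower in the precipitates. Eif3f, a subunit of the MPN domain type, read 9.20, 9.31 and 9.27 with 4E-T, 9.87, 9.75 and 9.95 with IgG and 10.58, 10.89, 10.89 and 11.22 in input. The 3 groups did not overlap. Its differences were -1.61 ± 0.14 for 4E-T over input (5.09e-05) and -1.10 ± 0.14 with IgG against input (3.48e-04).

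The same held for Eif3k (-1.19 ± 0.13 for 4E-T over input, -1.003 ± 0.13 with IgG against input), Eif3m (-1.11 ± 0.13 and -1.33 ± 0.13), Eif3e (-1.08 ± 0.13 and -1.11 ± 0.13) and Eif3h (-0.96 ± 0.12 and -1.05 ± 0.13), all subunits of the core ring. Each of these was called in both comparisons and in every fit that left out 1 array, with adjusted p from 8.93e-05 to 3.70e-04 in the fit of all arrays. Eif3l, another subunit of that ring, differed by -0.74 ± 0.17 for 4E-T over input and -1.07 ± 0.17 with IgG against input. The first of these calls was lost without 4E-T 2 or 4E-T 3 (adjusted p = 0.0607 and 0.0586). Eif3d, whose human protein can itself contact the cap, read 8.76, 8.41 and 8.42 with 4E-T, 7.98, 8.13 and 7.71 with IgG and 9.24, 9.04, 9.08 and 9.42 in input. The 4E-T arrays stood between the IgG arrays and the inputs. Its differences were -0.68 ± 0.15 for 4E-T over input (0.00765) and -1.21 ± 0.16 with IgG against input (3.58e-04). The first call was lost without input 1 (0.0854) and held in the 8 arrays (0.0171).

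The genes of the 3 largest subunits were not called in IgG precipitates against input. Eif3a, the scaffold of the complex, read 9.53, 9.71 and 9.76 with 4E-T, 9.38, 9.38 and 9.26 with IgG and 9.19, 9.35, 9.16 and 9.08 in input. Its 4E-T arrays lay above all others. Eif3a was higher in 4E-T than in input by 0.48 ± 0.13 (0.0186) and was not called with IgG against input (0.12 ± 0.13). Eif3b read 7.62, 8.14 and 7.75 with 4E-T, 8.42, 8.33 and 8.20 with IgG and 8.25, 8.42, 8.44 and 8.32 in input, a difference of -0.50 ± 0.14 for 4E-T over input (0.0224) and -0.10 ± 0.14 with IgG against input (not called). Eif3c differed by -0.72 ± 0.15 (0.00478) and -0.11 ± 0.15 (not called). The call of Eif3a for 4E-T over input did not hold without any one of 4E-T 1 to 3 and inputs 1 and 3 (adjusted p from 0.0511 to 0.171). That of Eif3b did not hold without any one of 4E-T 1 and 3 and inputs 1 to 3 (0.0524 to 0.292). That of Eif3c did not hold without 4E-T 1 or input 1 (0.0814 and 0.0704). In the 8 arrays the calls of Eif3a and Eif3c held (0.0321 and 0.0361) and that of Eif3b did not (0.0994). Eif3j1, a loosely bound subunit measured at a dim probe set, read 4.43, 4.35 and 4.22 with 4E-T, 4.30, 4.64 and 4.67 with IgG and 3.10, 4.05, 4.04 and 3.45 in input. It was higher than input by 0.71 ± 0.21 with 4E-T and 0.80 ± 0.21 with IgG (adjusted p = 0.0317 and 0.0238). These calls were lost without 4E-T 1 or 2 or input 1 or 4 for 4E-T (0.0781 to 0.231), and without 4E-T 1, IgG 3 or 4 or input 1 or 4 for IgG (0.0515 to 0.0915). With the replicate number as a block the 4E-T call was also lost (adjusted p = 0.0608).

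**Figure D2:**
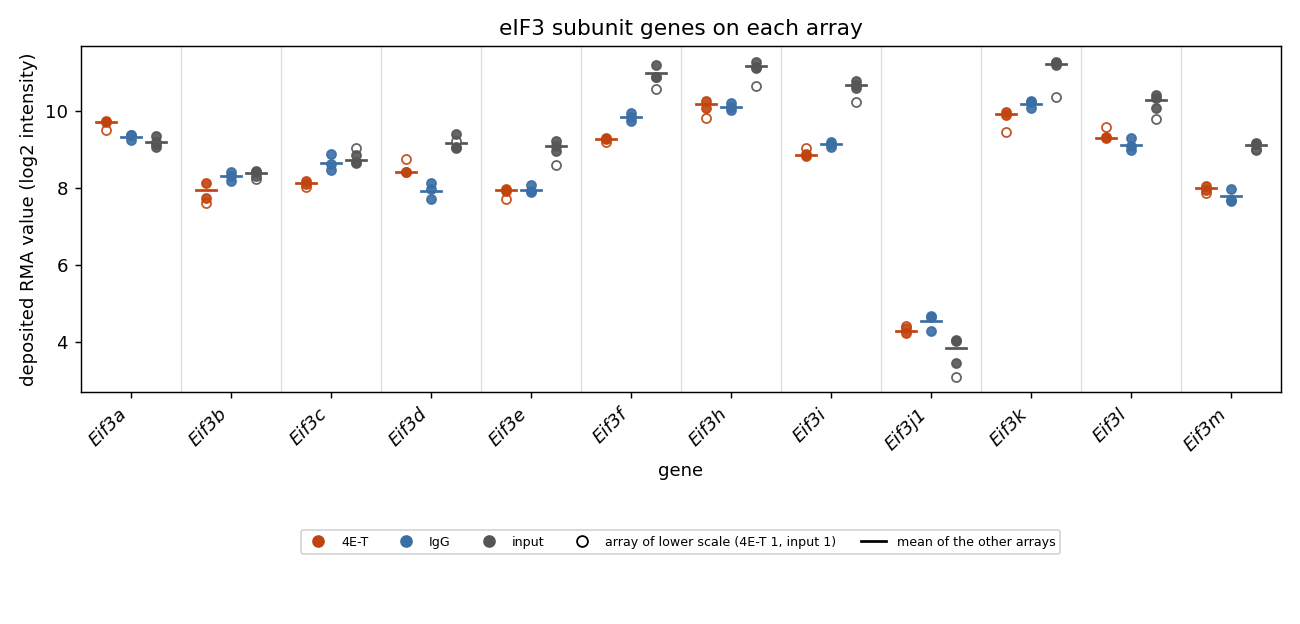
Deposited log2 value of the 12 measured eIF3 genes on each array, with 4E-T in red-brown, IgG in blue and input in grey; open symbols are 4E-T 1 and input 1, and lines are means of the other arrays of a group. For Eif3i the precipitates read between 8.84 and 9.22 and the inputs between 10.24 and 10.79, while for Eif3a the 4E-T arrays lie on top.

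The sequence around the annotated start shows which of these genes carry a pyrimidine stretch there. Windows of 30 bases, 10 before the start and 20 from it, are given from RefSeq (GRCm38.p6), with the longest run of C or T that reaches within 5 bases of the start in capitals where it has at least 5 bases. The genes shown are some of the eIF3 and elongation factor genes called lower with 4E-T than in input, and Eif4h, which was called higher. Of the lower genes, those with a marked run come first and then those without one. Not shown are Eif3b and Eif3m, with runs of 5 bases, and Eif3c, Eif3d and Eef1b2, without a marked run, which were also called lower.
Eif3f, chr7:108934405-108934434, plus strand: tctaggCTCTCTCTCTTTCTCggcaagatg
Eif3l, chr15:79075213-79075242, plus strand: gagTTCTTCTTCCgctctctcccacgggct
Eef1a1, chr9:78481705-78481734, minus strand: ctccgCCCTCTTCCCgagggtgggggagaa
Eif3k, chr7:28981869-28981898, minus strand: aaccggcgctggtgctgaaagcgcctttcc
Eef2, chr10:81176621-81176650, plus strand: aaggccgggcgttgacgtcagcggtctctt
Eif4h, chr5:134639390-134639419, minus strand: acttgcgatcaggcagcgcggcggacagcc
Only the strand of the gene was searched. Of the 47 members with a start in the table, 21 (44.7%) held a run of at least 5 bases and 10 (21.3%) a run of at least 8, against 36.7% and 11.4% of the 27025 genes with a start there. Among the 9 eIF3 genes with a start, the counts were 4 and 2. Eif3k was 2.28-fold lower with 4E-T than in input and holds no such run within 5 bases of its start. Eif3f holds one of 15 bases. The windows of Eif3k and Eef2 do end in stretches of C and T, which lie further from the start and were not counted. The annotated start may differ from the start used in cortex. A window without capitals therefore says only that no such run reaches this position.

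The elongation group, which by its symbol includes Eef1e1, had 5 lower and 0 higher of 7 genes with 4E-T relative to input. With IgG 3 were lower, Eef1e1 among them, and 0 higher. Eef1d, part of the exchange factor of eEF1A, read 8.41, 8.02 and 7.98 with 4E-T, 8.15, 8.07 and 7.90 with IgG and 9.63, 9.73, 9.69 and 9.57 in input. Precipitates and inputs were apart by more than 1 unit on every array. Its differences were -1.53 ± 0.13 for 4E-T over input (adjusted p = 5.66e-05) and -1.57 ± 0.14 with IgG against input (4.91e-05). Eef1b2, of the same exchange factor, differed by -0.55 ± 0.12 (0.00689) and -0.49 ± 0.12 (0.0174). Its calls were lost without 4E-T 1 or input 1 in both comparisons, and without input 2 with IgG against input (adjusted p from 0.0550 to 0.293). In the 8 arrays its calls held (0.0409 with 4E-T and 0.0284 with IgG). Eef2, the translocase, read 9.71, 10.50 and 10.38 with 4E-T, 10.87, 10.95 and 11.28 with IgG and 10.66, 11.16, 11.24 and 11.55 in input. It was lower with 4E-T than in input by -0.90 ± 0.15 (0.00126) and was not called with IgG against input (-0.29 ± 0.15). Eef1g, a structural subunit of the exchange factor, differed by -0.64 ± 0.12 (0.00275) for 4E-T over input and by -0.24 ± 0.12 (not called) with IgG against input. The 4E-T calls of Eef2 and Eef1g were each lost without 4E-T 1 (0.119 and 0.183). Both held in the 8 arrays (0.00907 and 0.0165).

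Eef1a1, which delivers aminoacyl-tRNA, read 11.07, 11.53 and 11.59 with 4E-T, 11.90, 11.88 and 11.93 with IgG and 11.39, 11.89, 11.89 and 12.01 in input. The difference was small, at -0.36 ± 0.11 for 4E-T over input (0.0486) and -0.02 ± 0.12 with IgG against input (not called). The call was lost without any 1 array other than IgG 2 and IgG 4 (adjusted p from 0.0591 to 0.608), with the replicate number as a block (0.0812) and in the 8 arrays (0.101). Other probe sets pair Eef1a1 with near-identical gene copies, so signal from such copies may not be told apart from it here. Eef1a2, the paralog of mature neurons and muscle, was called in neither comparison (-0.45 ± 0.32 and -0.52 ± 0.33), although it was lower with IgG than in input with the replicate number as a block (adjusted p = 0.0311). Eef1e1, whose protein sits in the multi-synthetase complex, differed by -0.08 ± 0.19 for 4E-T over input (not called) and by -0.93 ± 0.19 with IgG against input (0.00582). Its IgG call was lost without 4E-T 1 or input 1 (0.139 and 0.121) and held in the 8 arrays (0.0142).

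Among the enzymes that modify elongation factors, 2 of 6 were lower than input in each comparison and 0 higher. Eef1akmt1, a lysine methyltransferase of eEF1A, read 6.98, 6.92 and 6.72 with 4E-T, 7.52, 7.31 and 7.50 with IgG and 8.54, 8.70, 8.54 and 8.60 in input. No 2 groups overlapped. Its difference from input was the lowest of the 63 genes with 4E-T, at -1.72 ± 0.13 (2.97e-05, 3.30-fold lower), and -1.14 ± 0.13 with IgG (2.02e-04). Eef1akmt2 differed by -0.90 ± 0.15 and -0.86 ± 0.16 (0.00157 and 0.00301), both lost without 4E-T 1 (0.104 and 0.0952). Both calls held in the 8 arrays (0.00767 and 0.00628). Eef2k, the kinase that inactivates eEF2, was called in neither (-0.03 ± 0.16 and -0.08 ± 0.16). Eef2kmt, the methyltransferase of eEF2, had the highest difference of these enzymes between the precipitates, 0.22 ± 0.16 for 4E-T over IgG, and was called in none of the 3 comparisons, like Eef1akmt3 and Eef1aknmt.

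The genes that load and recharge eIF2 were also on the low side. Of the 5 eIF2B genes, 2 were lower with 4E-T and 4 with IgG than in input, and 0 were higher. Eif2b5, the catalytic subunit, read 7.20, 6.88 and 7.03 with 4E-T, 7.21, 6.78 and 6.83 with IgG and 8.08, 7.88, 7.72 and 7.97 in input. Both precipitates lay below all inputs, by -0.89 ± 0.14 for 4E-T over input (0.00101) and -0.91 ± 0.15 with IgG against input (0.00133). Eif2b2 differed by -0.59 ± 0.15 (0.0146) and -0.92 ± 0.15 (0.00156), the first lost without 4E-T 1, 2 or 3 or input 1 (0.0505 to 0.243). Eif2b1 and Eif2b4 were called only with IgG against input (-0.68 ± 0.15 and -0.71 ± 0.13), and Eif2b3 in neither comparison. The call of Eif2b1 was lost without 4E-T 1 or input 1 (0.112 and 0.0981). In the 8 arrays it held (0.0182), while the 4E-T call of Eif2b2 did not (0.0605).

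Of 4 measured genes of eIF2 and other carriers of initiator tRNA, 2 were lower than input in each comparison. Eif2d, which can place tRNA on the small subunit, differed by -0.76 ± 0.16 for 4E-T over input (0.00578) and by -0.58 ± 0.17 with IgG against input (0.0330). Eif2s3y, the Y-linked copy of the eIF2 gamma gene, differed by -0.82 ± 0.18 for 4E-T over input (0.00783), and Eif2a, an alternative tRNA carrier, by -0.75 ± 0.20 with IgG against input (0.0244). These calls were lost in some of the fits that left out 1 array, and all held in the 8 arrays. Adjusted p there was 0.0443 and 0.0482 for Eif2d with 4E-T and with IgG, 0.0302 for Eif2s3y and 0.0384 for Eif2a. Eif2d with 4E-T was lost without 4E-T 1 or input 1 (0.0559 to 0.203), and with IgG without any 1 of 4E-T 1 to 3, IgG 4 or input 1 to 3 (0.0507 to 0.356). Eif2s3y was lost without 4E-T 1 or 4E-T 3 (0.115 and 0.0513), and Eif2a without 4E-T 1, IgG 3 or input 1, 2 or 4 (0.0617 to 0.158). Eif2s2, the eIF2 beta gene, was called in none of the 3 comparisons. With the replicate number as a block, Eif2s2 was called lower with IgG than in input (adjusted p = 0.0370) and Eif2a lower with 4E-T than in input (0.0463).

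Eif6, which keeps the large ribosomal subunit from joining too early, read 6.33, 6.55 and 6.19 with 4E-T, 6.78, 6.24 and 6.22 with IgG and 7.50, 7.29, 7.48 and 7.22 in input. The inputs lay above both precipitates, which overlapped each other. It differed by -1.02 ± 0.17 for 4E-T over input (0.00123) and -0.94 ± 0.17 with IgG against input (0.00288), and both calls held without any 1 array.

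**Figure D3:**
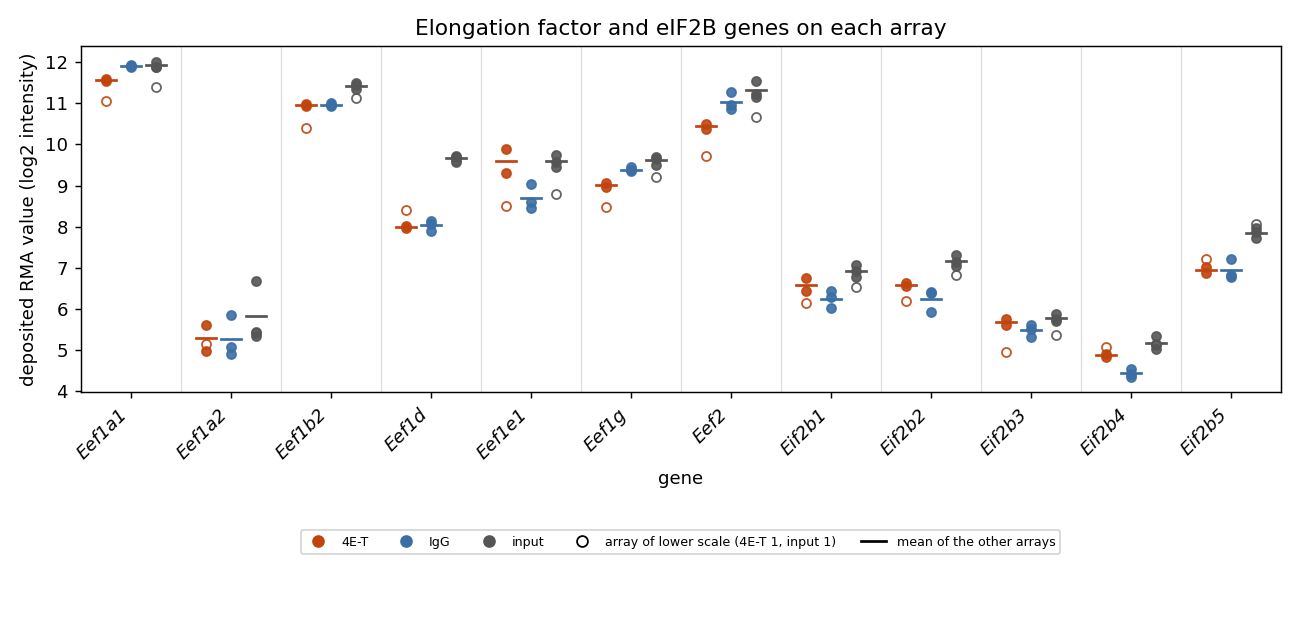
Deposited log2 values on each array of the 7 genes of the elongation group and the 5 eIF2B genes. Colours are red-brown for 4E-T, blue for IgG and grey for input. Open symbols are 4E-T 1 and input 1, and lines are means of the other arrays. Eef1d and Eif2b5 lie low in both precipitates, and Eef2 lies lowest with 4E-T.

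A few genes went the other way relative to input. Eif4h, which stimulates the eIF4A helicase, read 9.14, 10.17 and 10.10 with 4E-T, 9.64, 9.27 and 9.42 with IgG and 8.31, 9.08, 9.04 and 9.10 in input. The 4E-T arrays lay above input in both scale sets. It was higher with 4E-T than in input by 1.00 ± 0.13 (3.37e-04, 1.99-fold) and was not called with IgG against input (0.34 ± 0.14). The 4E-T call was lost without input 1 (0.120) and held in the 8 arrays (0.00157). Eif2ak3, which encodes the kinase PERK of the endoplasmic reticulum, was higher with 4E-T by 0.85 ± 0.13 (6.49e-04). This call was also lost without input 1 (0.0832) and held in the 8 arrays (0.00495). Eif5b, the GTPase that joins the subunits, read 7.37, 8.56 and 8.56 with 4E-T, 8.16, 7.67 and 7.46 with IgG and 7.43, 7.04, 7.10 and 7.21 in input. Its rise of 1.00 ± 0.26 with 4E-T over input (0.0167) rested on 4E-T 2 and 4E-T 3, while 4E-T 1 differed from input 1 by -0.07. The call was lost without 4E-T 2, 4E-T 3 or input 1 (0.0564 to 0.107).

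Eif5a2, the less widely expressed paralog of eIF5A, was higher than input in both precipitates, by 0.55 ± 0.13 with 4E-T (0.0120) and 0.49 ± 0.14 with IgG (0.0294). Its calls were lost without 4E-T 1 or 3 or input 1 for 4E-T (0.0608 to 0.375), and without 4E-T 1, IgG 3 or 4 or input 1, 2 or 4 for IgG (0.0710 to 0.255). Eif4e1b, an eIF4E relative known from oocytes, and Eif4g3, an eIF4G scaffold, were higher with IgG than in input by 0.49 ± 0.15 and 0.42 ± 0.13 (0.0480 and 0.0418). The Eif4e1b probe set was dim, at 4.16, 4.27 and 4.47 with IgG and 2.17, 3.67, 3.95 and 3.98 in input. Each of these input values lay below the median of its array. The Eif4e1b call was lost without any 1 array other than IgG 2 and input 4 (0.0670 to 0.580), and the Eif4g3 call without any 1 of the 10 arrays (0.0541 to 0.242) or with the replicate number as a block (0.0525). Eif4ebp1, an inhibitor of eIF4E, was lower with IgG than in input by -1.15 ± 0.19 (0.00143), and Eif1ad, an eIF1A-like gene, by -1.12 ± 0.18 (0.00149). Neither was called for 4E-T over input (-0.48 ± 0.18 and -0.45 ± 0.18), but both were called lower there with the replicate number as a block (adjusted p = 0.0229 and 0.0154). Eif2ak1, the heme-regulated kinase of eIF2 alpha, was lower with IgG than in input by -0.77 ± 0.16 (0.00653). This call was lost without 4E-T 1 or input 1 (0.0510 to 0.106) and held in the 8 arrays (0.0111).

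The comparison of the 2 precipitates asks which of these mRNAs had a higher relative level with the 4E-T antibody than with IgG. It called 10 of the 63 genes, 6 higher and 4 lower with 4E-T, where 7.57% of all genes were called higher and 2.92% lower. The median was 0.04, beside 0.03 over all genes. By complex, 0 of 12 eIF3 genes were higher and 1 lower, and 0 of 5 eIF2B genes were called. Of the 7 genes in the elongation group, Eef1e1 was higher and Eef2 lower. With group alone 0 of the 63 were called (14 with an unadjusted p under 0.05), with group alone on arrays centred on their medians 2 were higher and 1 lower, and in the 8 arrays 6 were higher and 3 lower. Leaving out input 1 gave a count of 0, and leaving out 1 of the 4E-T arrays 1, 2 and 3 gave counts of 1, 2 and 1. Leaving out IgG 4 gave 5. In each of these fits fewer of all 22180 genes were called as well, and far fewer with group alone and without input 1. A lower count among the members therefore does not by itself set them apart from other genes. Of the 10 measured cortical markers 4 were higher and 1 lower with 4E-T than with IgG, and 1 of 4 endothelial markers was higher. The mean log2 value of the cortical markers was 9.27 to 9.37 with 4E-T, 9.03 to 9.06 with IgG and 8.94 to 9.0 in input on the 8 arrays. That of the endothelial markers was 5.37 to 5.63, 4.63 to 4.99 and 4.94 to 5.29. The part of these cells in the differences was not tested.

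**Figure D4:**
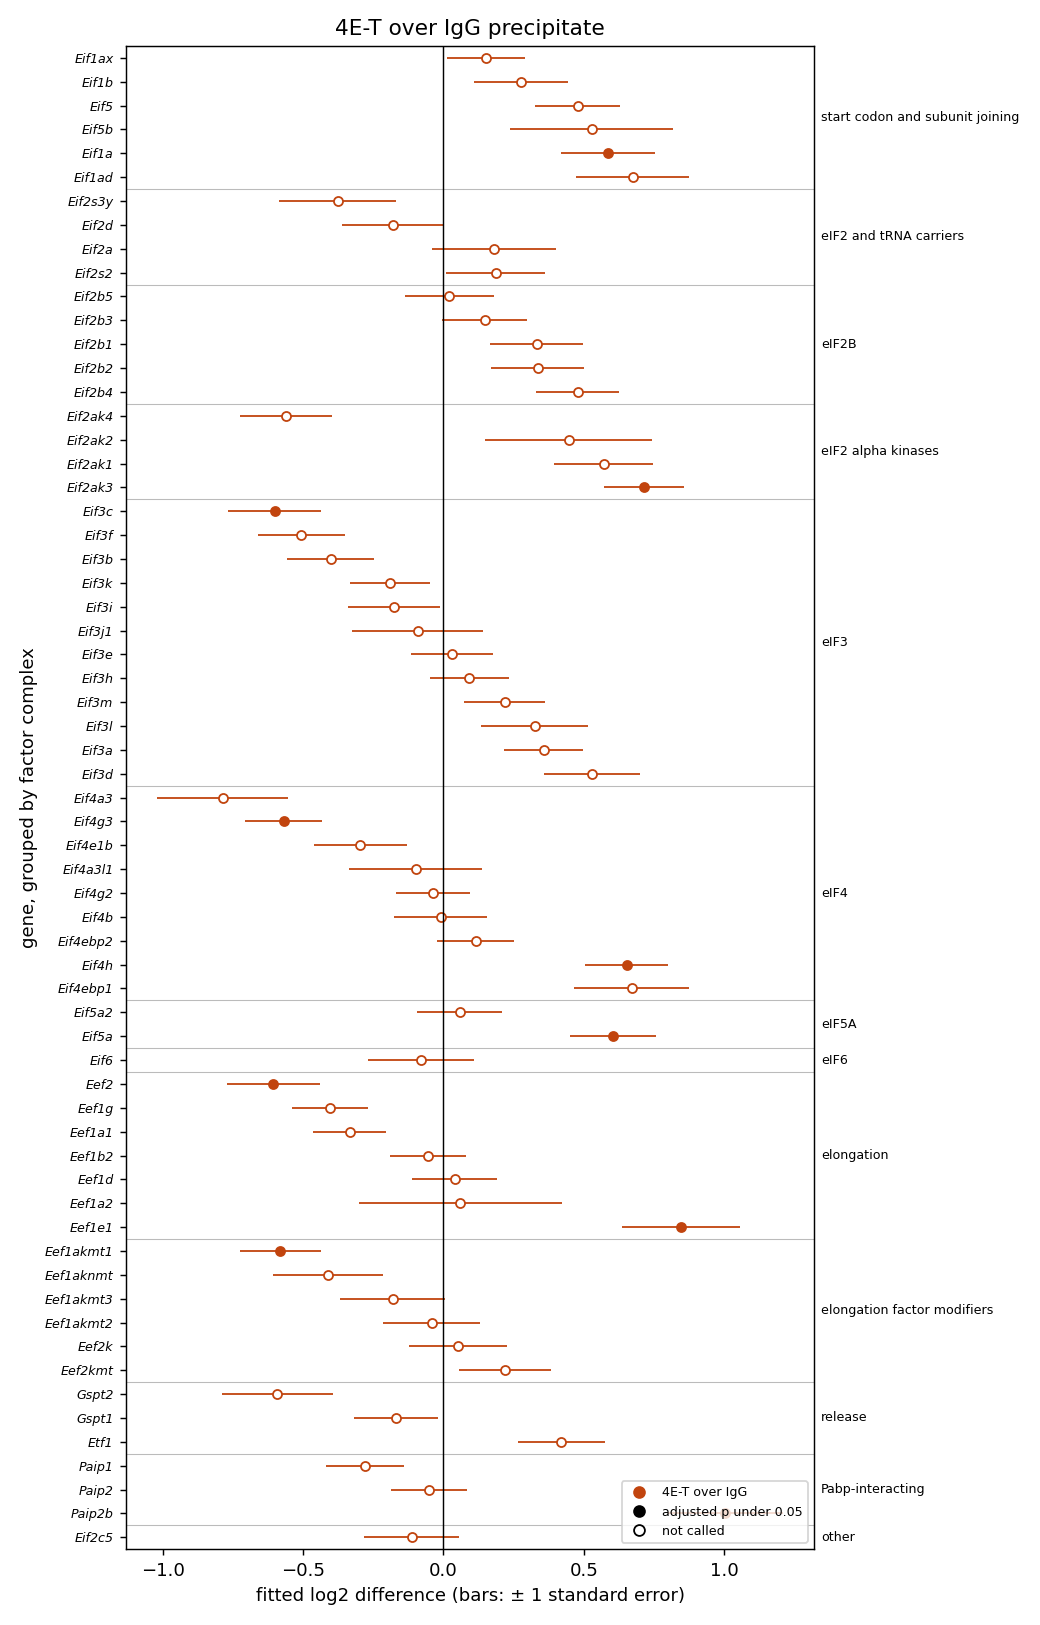
Fitted log2 differences of the 4E-T over the IgG precipitates for the 63 genes, grouped by factor complex; bars are ± 1 standard error and filled points have an adjusted p under 0.05. Called genes run from Paip2b at 1.00 to Eef2 at -0.61, and 5 eIF2B genes lie between 0.02 and 0.48 with none called.

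Paip2b, which encodes a repressor that binds the poly(A)-binding protein, led the higher side. It read 6.23, 7.84 and 7.82 with 4E-T, 6.76, 6.48 and 6.72 with IgG and 6.19, 6.70, 6.93 and 6.82 in input. 4E-T 2 and 3 stood above all other arrays, while 4E-T 1 differed from input 1 by 0.04. The difference was 1.00 ± 0.20 for 4E-T over IgG (0.00982, 2.01-fold) and 0.73 ± 0.18 for 4E-T over input (0.0141). Both calls were lost without 4E-T 2, 4E-T 3 or input 1 (0.0733 to 0.348 over IgG, 0.0924 to 0.482 over input). The sister genes were not called: Paip1, whose protein stimulates translation, was at -0.28 ± 0.14 and Paip2 at -0.05 ± 0.13.

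Eif2ak3 read 6.42, 6.94 and 6.92 with 4E-T, 6.40, 6.10 and 6.20 with IgG and 5.50, 6.03, 6.22 and 6.09 in input. Its 4E-T arrays lay above those of the other groups within either scale. It was higher with 4E-T than with IgG by 0.71 ± 0.14 (0.00855). This call was lost without 4E-T 1 or input 1 (0.227 and 0.212) and held in the 8 arrays (0.0205). The other eIF2 alpha kinase genes were not called over IgG, with Eif2ak1 (HRI) at 0.57 ± 0.18, Eif2ak2 (PKR) at 0.45 ± 0.30 and Eif2ak4 (GCN2) at -0.56 ± 0.16 (adjusted p = 0.0503). With the replicate number as a block Eif2ak4 was called lower (-0.63 ± 0.16, adjusted p = 0.0303). Eif4h was higher with 4E-T than with IgG by 0.65 ± 0.15 (0.0159), lost without 4E-T 1 to 3, IgG 3 or input 1 (0.0506 to 0.466).

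Eef1e1 read 8.50, 9.31 and 9.89 with 4E-T, 8.61, 9.05 and 8.45 with IgG and 8.80, 9.58, 9.75 and 9.46 in input. The 4E-T arrays overlapped the inputs and, outside the lower scale, lay above IgG. It was higher with 4E-T than with IgG by 0.85 ± 0.21 (0.0243), and the call ended without 4E-T 1, 4E-T 3, IgG 2, IgG 4 or input 1 (0.0547 to 0.368). Eif5a, a factor that carries the hypusine residue and eases peptide bonds, was higher by 0.60 ± 0.15 (0.0259), lost without 4E-T 1 to 3, IgG 4 or input 1 (0.0654 to 0.517). It was lower with IgG than in input by -0.44 ± 0.14 (0.0488), lost without any 1 array other than input 4 (0.0640 to 0.597). Eif1a, the autosomal eIF1A gene of the mouse, was higher by 0.59 ± 0.17 (0.0469) and kept its call only without IgG 4, with adjusted p from 0.0598 to 0.403 without any other array and 0.0550 with the replicate number as a block. Each of the other start codon and joining genes had a positive difference and was not called, from 0.15 ± 0.14 for Eif1ax to 0.67 ± 0.20 for Eif1ad (adjusted p = 0.0543). With the replicate number as a block Eif1ad was called higher (0.55 ± 0.15, adjusted p = 0.0484).

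On the lower side, Eef2 was lower with 4E-T than with IgG by -0.61 ± 0.17 (0.0383) and Eif3c by -0.60 ± 0.17 (0.0388). Eif3c read 8.03, 8.19 and 8.10 with 4E-T, 8.88, 8.48 and 8.64 with IgG and 9.06, 8.68, 8.65 and 8.87 in input, so that the IgG arrays overlapped the inputs and the 4E-T arrays did not. The Eef2 call was lost without 4E-T 1 to 3, IgG 3 or 4 or input 1, 2 or 3 (0.0563 to 0.396). The Eif3c call was lost without 4E-T 1 to 3, IgG 2 or 4 or input 1, 2 or 3 (0.0594 to 0.358), and with the replicate number as a block (0.0531). Eef1akmt1, whose values are given above, was lower than with IgG by -0.58 ± 0.14 (0.0253), lost without 4E-T 1 to 3, IgG 2 or 4 or input 1 (0.0549 to 0.188).

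Of the 9 eIF4 genes, 1 was higher and 1 lower with 4E-T than with IgG, 1 was higher and 0 lower with 4E-T than in input, and 2 were higher and 1 lower with IgG than in input. Eif4g3, a scaffold that links eIF4E to the helicase and to eIF3, read 6.82, 6.83 and 6.93 with 4E-T, 7.36, 7.35 and 7.58 with IgG and 7.03, 7.03, 7.05 and 6.94 in input. The IgG arrays lay above all others. It was lower with 4E-T than with IgG by -0.57 ± 0.14 (0.0219) and was not called against input (-0.15 ± 0.12). This call did not hold without any one of 4E-T 1 to 3, IgG 4 and input 1 (adjusted p up to 0.25). Eif4g2, a relative that lacks the eIF4E site, was not called in any comparison, at -0.04 ± 0.13 over IgG and 0.05 ± 0.12 over input. Of the eIF4E inhibitors, Eif4ebp2 was at 0.11 ± 0.14 over IgG and Eif4ebp1 at 0.67 ± 0.20 (adjusted p = 0.0587), neither called. Eif4a3, the helicase of the exon junction complex, had the lowest difference of all members, -0.79 ± 0.23, and was not called (0.0523). Eif4b, which aids the helicase, and Eif4a3l1, like the start factor genes Eif1b and Eif5, were called in none of the 3 comparisons.

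**Figure D5:**
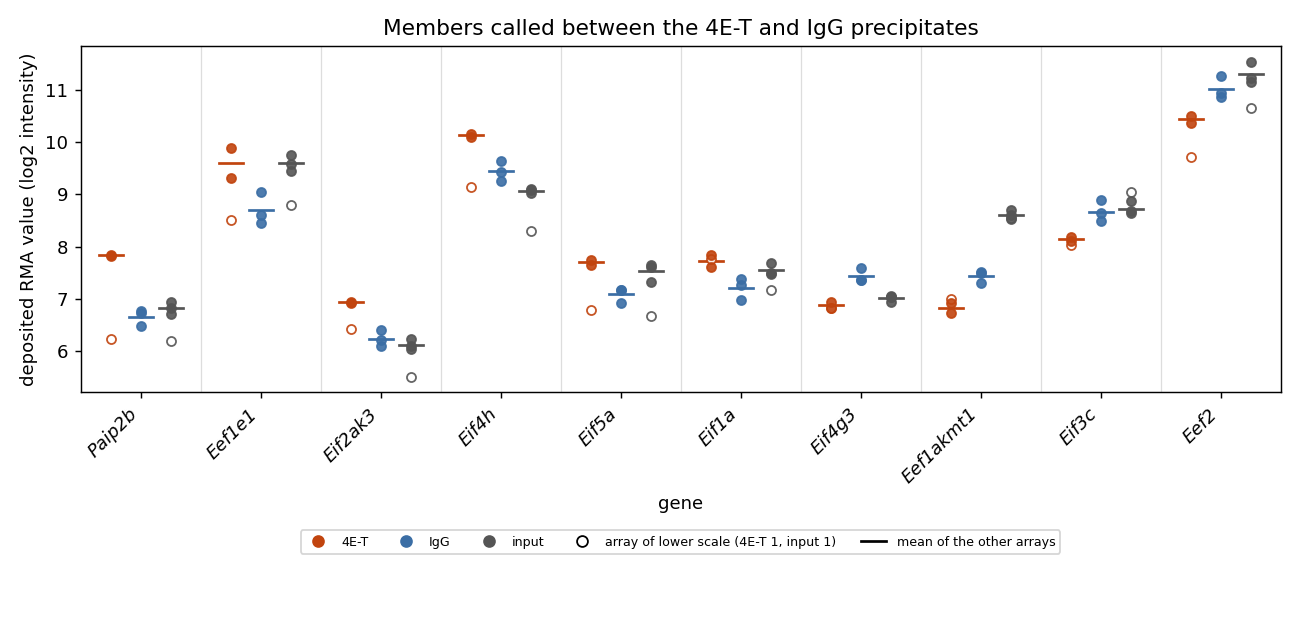
Deposited log2 values on each array for the 10 genes called between the 4E-T (red-brown) and IgG (blue) precipitates, with input in grey, open symbols for 4E-T 1 and input 1 and lines at the means of the other arrays. Paip2b reads 7.84 and 7.82 on 4E-T 2 and 3, against 6.48 to 6.76 with IgG, and Eif4g3 reads 7.35 to 7.58 with IgG.

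The release factor genes were called in none of the 3 comparisons. Etf1, which reads stop codons, read 9.16, 9.68 and 9.71 with 4E-T, 9.41, 9.32 and 9.04 with IgG and 9.09, 9.64, 9.64 and 9.34 in input. Outside the lower scale its 4E-T arrays lay above IgG, but the difference of 0.42 ± 0.16 did not pass (adjusted p = 0.118). Gspt1 was at -0.17 ± 0.15 and Gspt2 at -0.59 ± 0.20 over IgG (0.567 and 0.0822). With the replicate number as a block Gspt2 was called lower with 4E-T than with IgG and than in input (adjusted p = 0.0451 and 0.0496). Eif2c5 was called in none of the comparisons either.

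A list of 59 other translation genes outside the rule was read beside these, covering tRNA synthetases, mTOR subunits, recycling factors and mitochondrial factors, of which 51 were measured. With 4E-T over IgG 10 were higher and 2 lower, with 4E-T over input 5 and 11, and with IgG over input 2 and 16. Over all genes, 7.57% were called higher and 2.92% lower for 4E-T over IgG. The shares were 10.4% and 8.86% for 4E-T over input, and 6.14% and 10.5% for IgG over input. Wars, the tryptophanyl-tRNA synthetase gene, was higher with 4E-T than with IgG by 1.25 ± 0.14 (2.88e-04), and Mlst8, a subunit of the mTOR complexes, by 0.99 ± 0.27 (0.0353). Mcts1, a factor of reinitiation, was lower by -0.87 ± 0.20 (0.0170), as was Larp1, whose protein binds TOP mRNAs, by -0.55 ± 0.15 (0.0376).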

How the data were processed

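The deposited values are log2 intensities that the authors made with RMA (background correction, quantile normalization and summary per probe set) with Expression Console (Affymetrix), per the submitters' processing notes. Tool versions and the build used for the probe sets are not given in the sources used here, and the table holds no detection calls. Amplification used a NuGEN Pico kit, per the labels' protocols.

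The table holds 41345 probe sets, of which 23521 have 1 gene symbol in the platform annotation, 1814 several and 16010 none. A gene with several single-symbol probe sets was represented by its brightest set on average, which gave 22180 genes. All 63 members matched the reference table (GRCm38.p6). Genes were fitted with limma 3.58.1 (lmFit, eBayes) in R 4.3.3 on all 10 arrays, with terms for group and for the pair of arrays below the widest gap in array medians. In simulated data for 4E-T over IgG with 22180 genes, 68% of changes of 1 log2 unit and 96% of changes of 2 were called. There 100 genes were changed by each size with independent noise on each array, and 5 unchanged genes were called. Fewer genes changed there than were called in the data, and changes under 1 unit were not simulated. These shares therefore need not hold for the data. The number of arrays limits the precision.

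The members, lists, tests, the term for the pair of arrays and the alternatives were chosen with earlier results of these data known. Named members were those called for 4E-T over IgG, the ends of each complex there, the 5 highest and 5 lowest called and non-overlapping for each comparison with input, and a short fixed list. Of the other translation genes up to 4 from the ends were named. Other members in the text complete a complex and were chosen after their values were seen.

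Equal replicate numbers were checked as pairs. Taken as deviations from their group means, same-numbered 4E-T and input arrays correlated across genes at 0.62, 0.24 and 0.28, above 0.1 in each pair, which meets the criterion for pairs. Differently numbered 4E-T and input arrays outside the lower scale correlated alike in that set (0.19 to 0.27), and with the lower scale left out the same-numbered values were 0.044 and 0.0085. For IgG and input they were -0.023, 0.080 and 0.32 in all arrays and 0.14, 0.091 and 0.25 without the lower scale, against -0.20 to 0.076 for different numbers there, while numbers common to 4E-T and IgG are only 2. The fit has no replicate block; a fit with one is an alternative, given beside each call that it changes. Plots used matplotlib 3.10.9 (Python 3.11.15).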

Additional observations from a re-analysis of the deposited data

Results flagged for a closer look

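With the fitted term of the lower scale removed, input 4 stood apart from the other inputs for 2 of the 41 named members. For Eif3d it read 9.42, against 9.04 to 9.08 on the others, a gap of 0.888 of the range. For Eif3f it read 11.22, against 10.85 to 10.89, a gap of 0.871 of the range. Both exceed Dixon's critical value for 4 arrays, and chance gives about 1 in 20 such groups. Without input 4, the Eif3d difference from input was -0.59 ± 0.15 with 4E-T and -1.09 ± 0.16 with IgG, and both calls held, as did those of Eif3f. Without it, Eif3f was also called lower with 4E-T than with IgG (-0.53 ± 0.14, adjusted p = 0.0384).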

How the results depend on the processing

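Of the 63 members, those called for 4E-T over IgG numbered 10, against 0 with group alone (14 with an unadjusted p under 0.05), 3 with group alone on arrays centred on their medians, 20 with a trended prior and 21 when only genes above the median mean were tested. With group alone, on centred arrays or not, fewer of all 22180 genes were called for 4E-T over IgG too. The fit of genes above the median mean held 11090 genes and not all of the 63 members. There and with a trended prior, more genes were called in total for 4E-T over IgG as well, so the higher member counts came with more calls among other genes. For 4E-T over input 29 members were called, against 11 with group alone and 19 with group alone on centred arrays. For IgG over input 28 were called, against 15 with group alone. Counts over all genes in the alternatives are not given here for the comparisons with input. Leaving out 1 array gave 0 to 12, 15 to 30 and 16 to 26. Without 4E-T 1 the counts were 1, 16 and 16, and without input 1 they were 0, 15 and 17. By the way these fits were set up, the term for the lower scale is dropped there. The 8 arrays without both gave 9, 26 and 27. The replicate block gave 11, 31 and 29. It ended 2 calls and added 3 for 4E-T over IgG (lost Eif1a and Eif3c, gained Eif1ad, Eif2ak4 and Gspt2), ended 2 and added 4 for 4E-T over input (lost Eef1a1 and Eif3j1, gained Eif1ad, Eif2a, Eif4ebp1 and Gspt2) and ended 1 and added 2 for IgG over input (lost Eif4g3, gained Eef1a2 and Eif2s2). It changed no other call among the members. No named member that was called changed sign under any of the 17 alternatives. The 8 eIF3 genes Eif3d, Eif3e, Eif3f, Eif3h, Eif3i, Eif3k, Eif3l and Eif3m are those of 12 called lower for IgG over input in the main fit. Their counts therefore describe a list taken from these same data. They were all lower for IgG over input in 16 of the alternatives, and 7 of them with group alone. For 4E-T over input, 6 to 8 of them were called lower. Dim probe sets such as those of Eif3j1 and Eif4e1b cannot be told from background without detection calls.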

Other observations

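For 2 members there was a second single-symbol probe set. The dimmer set of Eef1a1 read 4.70, 5.37 and 4.74 with 4E-T, 5.64, 5.85 and 5.48 with IgG and 4.96, 5.63, 5.56 and 5.34 in input, the same order of 4E-T below IgG as the brighter set. The dimmer set of Eif3d read 4.38, 5.15 and 4.99 with 4E-T, 5.24, 5.04 and 5.48 with IgG and 4.76, 5.48, 5.44 and 5.73 in input, so that there the 4E-T arrays did not stand above IgG as they did at the brighter set. For Eif4a3, 4E-T 1 and input 1 held the same value, 4.78.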
